A study of Homo sapiens with 6 samples.

Results

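The genes described here were 10 receptors of the Fc receptor and Fc receptor-like (FCRL) families: FCMR, FCER2, FCGR2B, FCRL1, FCRL2, FCRL3, FCRL4, FCRL5, FCRLA and FCRLB. They were chosen by name, as every probe set whose gene symbol in the platform annotation was one of these, and for FCGR2B also probe sets naming several FCGR2 genes. This gave 27 probe sets of 54613 that are not controls, for 10 of the 19775 genes that a probe set named alone. RNA came from RL cells, an established human B lymphoid line with the t(14,18)+ genotype, the translocation typical of follicular lymphoma. Untreated RL cells were compared in 2 states: 3 samples of multicellular aggregates (MALC) taken after 10 days of culture, and 3 samples of suspension cells taken while growing exponentially. All 6 samples were thus the same line, and nothing in the labels says that the 3 of a group came from separate cultures, so p-values speak of the variation among these 6 arrays, some of which may be technical. The comparison asks which transcripts differ between aggregates and suspension. The groups may also differ in growth state and time in culture, and the design cannot tell these apart from aggregation.

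Fc receptors bind the constant part of antibodies and report antibody or immune complexes to the cell. Several members on B cells are inhibitory. A tyrosine motif in their cytoplasmic tail (ITIM) recruits the phosphatases SHIP-1 and SHP-1 and dampens signalling of the B cell receptor. The chains of that receptor carry the activating motif (ITAM). The FCRL genes are relatives of the classical Fc receptors that are expressed mainly in B cells, with FCRLA and FCRLB lacking a transmembrane segment and staying inside the cell. These genes are used to tell B cell stages apart, and FCER2 (CD23) in particular differs among B cell lymphomas.

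Of the 10 genes, FCMR was higher in MALC, and FCGR2B, FCRLA and FCRLB were lower. FCMR rose 7.50-fold by the probe set that was brighter over the 6 arrays, and 2.41-fold by the other, which was brighter in suspension. FCGR2B was 2.50-fold lower, FCRLA 1.64-fold lower and FCRLB 1.55-fold lower. FCRL2, FCRL3, FCRL5 and FCER2 did not pass the test, and FCRL1 and FCRL4 lay below the level at which probe sets were tested. Values are linear signals, and differences and folds are on the scale of log2(signal + 16), which understates the change of dim probe sets. A probe set was tested if its mean over the 6 arrays was at least at the 40th percentile, a signal of 53.4, and it was called at an adjusted p under 0.05 (limma, Benjamini-Hochberg over all 32768 probe sets tested). In these bulk RNA samples, fewer cells with a transcript and less of it per cell cannot be told apart.

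**Figure D1:**
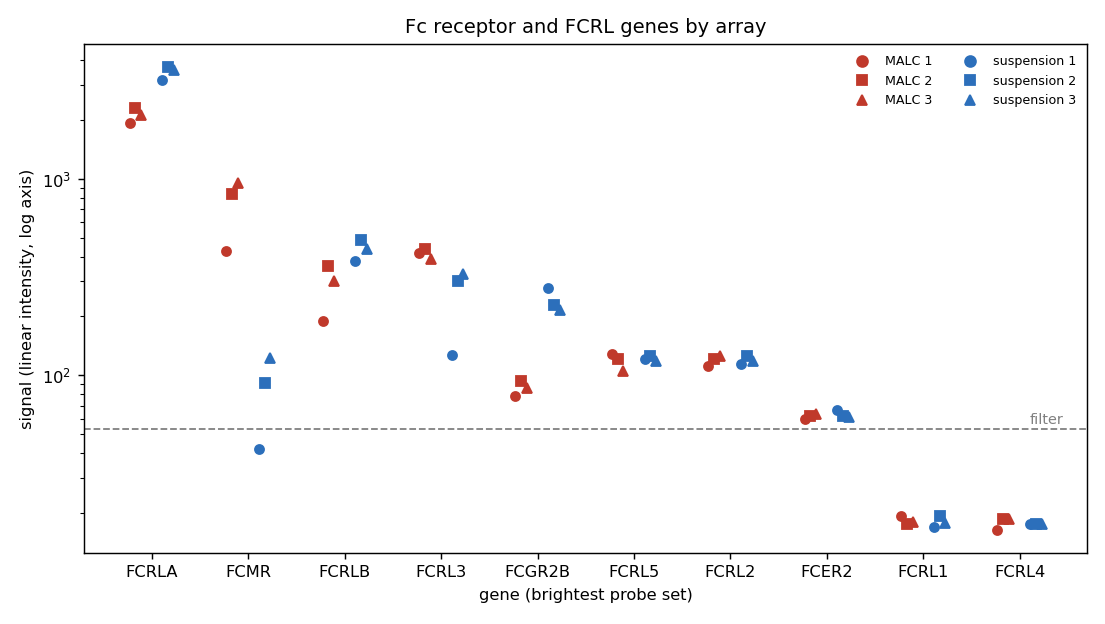
Signal (linear intensity on a log axis) of the brightest probe set of each of the 10 genes in the 3 MALC and 3 suspension samples, 1 point per array; the dashed line is the filter at 53.4. FCMR lies higher in all 3 MALC arrays and FCGR2B, FCRLA and FCRLB lie lower, whereas FCRL1 and FCRL4 lie under the filter. Heights of different probe sets are not comparable with each other.

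Of the 27 probe sets, 12 passed the filter, from 8 genes, and 15 did not. Of the 12, 7 were called, 2 higher and 5 lower in MALC, whereas 41.7% of all probe sets tested were called (21.2% higher, 20.4% lower). The groups did not overlap in 9 of the 12, against 56.1% of all probe sets tested. Over genes, each by its brightest probe set, 1 of 8 was higher and 3 were lower. Among all 13765 genes tested, 41.4% were called (18.6% higher, 22.7% lower), so the count of 4 called of 8 lies near the background and is no result about the family. The groups did not overlap in 5 of the 8 genes, against 56.9% of all genes. The median log2 difference was -0.09 over the 12 probe sets and -0.04 over all probe sets tested. The 15 dim probe sets had signals between 10.1 and 61.0 and log2 differences from -0.16 to 0.16. The member probe set just above the filter and the one just below it were both for FCER2.

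**Figure D2:**
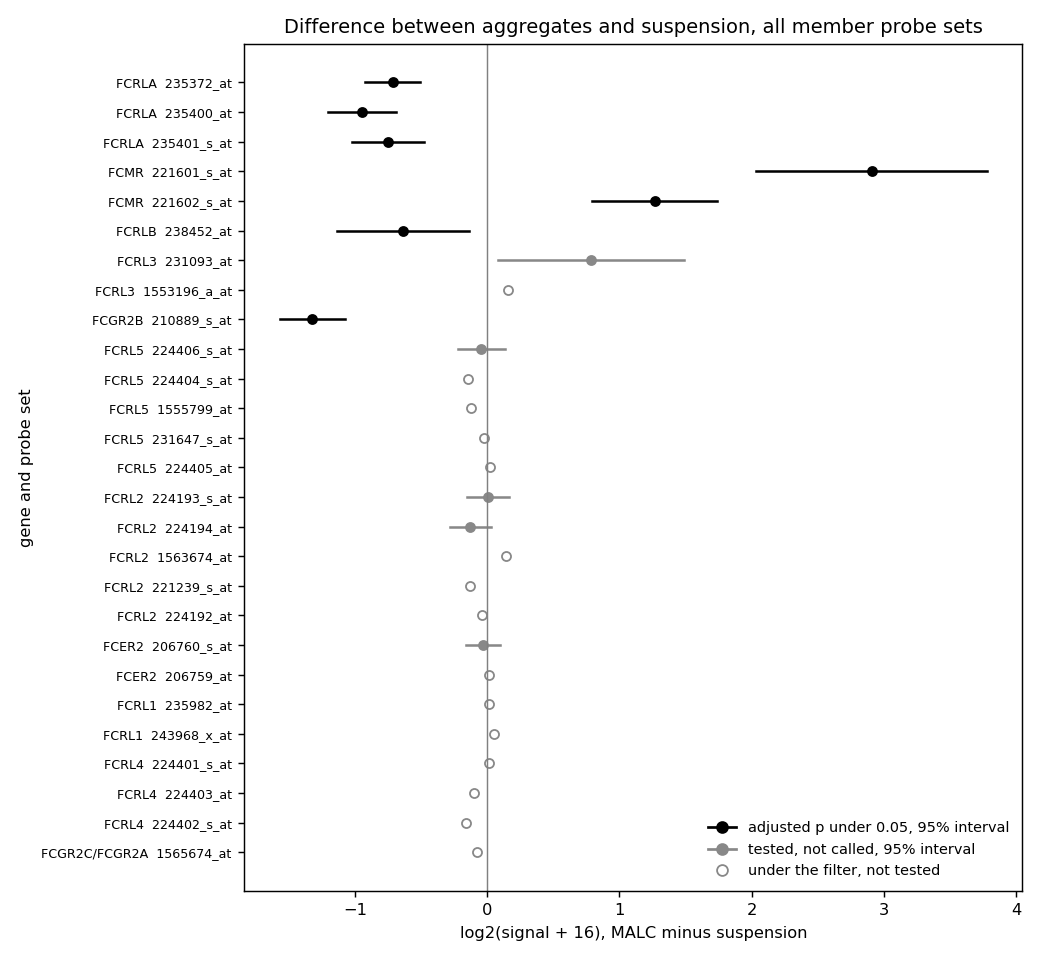
Difference MALC minus suspension in log2(signal + 16) for each of the 27 probe sets; bars are 95% intervals from limma over 3 samples a group, and open circles were under the filter and not tested. The 2 FCMR probe sets lie to the right of 0, the FCRLA, FCRLB and FCGR2B probe sets that were called to the left, and the interval of FCRL3 lies above 0 although its adjusted p missed the threshold.

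The arrays were alike in overall level, with median signals of 80.7 to 81.7 and 75th percentiles of 303 to 329. Sample 1 stood apart in both groups: over the probe sets tested, it correlated with samples 2 and 3 of its group at 0.991 to 0.992, and samples 2 and 3 correlated with each other at 0.998. MALC 1 also lay nearer to suspension: it correlated with the suspension samples at 0.975 to 0.978, and MALC 2 and 3 did so at 0.954 to 0.964. The B cell marker MS4A1 (CD20) was high in every sample, with signals of 11369 to 13524 in MALC and 10852 to 14374 in suspension. Markers of other cells that carry Fc receptors were also summed, and their part in the results was not tested. Myeloid markers summed to 312 to 331 in MALC and 303 to 336 in suspension. CD14, LYZ and FCGR1A were under the filter, whereas CSF1R, ITGAM and FCN1 passed it and were not called. NK cell markers summed to 676 to 801 and 654 to 683. Of these PRF1 was higher in MALC (363 to 479 against 302 to 328, log2 0.43, adjusted p 0.0176, limma). NCAM1 (log2 -0.18), NCR1 (-0.15), KLRD1 (-0.09) and GNLY (-0.08) had negative differences and were not called. Mast cell or basophil markers summed to 219 to 228 and 241 to 259, and of these TPSAB1 was lower in MALC (121 to 131 against 140 to 151, log2 -0.19, adjusted p 0.0472). T cell markers summed to 507 to 552 and 681 to 732, a gap that lay in CD247 (243 ± 22.7 against 407 ± 28.8, SD, n = 3 each; adjusted p 0.00103, limma), whereas CD3D and CD3E ranged only from 68.8 to 114 and were not called.

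FCMR, the Fc receptor for IgM on B cells, had the largest change among the members tested. On its brighter probe set, 221601_s_at, the signal was 428, 832 and 952 in MALC 1, 2 and 3, and 42.0, 91.2 and 123 in suspension 1, 2 and 3. Every MALC sample thus lay above every suspension sample, and sample 1 was the lowest of both groups. The means were 737 ± 275 and 85.3 ± 40.7 (SD, n = 3 each), a log2 difference of 2.91 with a standard error of 0.38 and a 95% interval of 2.04 to 3.78 (adjusted p 0.00106, limma). The second probe set, 221602_s_at, read 225, 340.0 and 348 in MALC and 85.8, 125 and 140 in suspension. In suspension it was the brighter of the pair, with a mean of 117 against 85.3. It rose by a smaller amount, 2.41-fold (log2 1.27, interval 0.80 to 1.74, adjusted p 0.0024), so the probe sets gave one direction but intervals that do not meet. Both carry the suffix _s_at, given to probe sets that can match more than one transcript. With suspension 1 as the only suspension sample the log2 difference of 221601_s_at was 3.62, and over all alternatives run it lay between 2.40 and 3.62, always called.

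The 3 genes whose levels followed FCMR most closely over the 6 arrays were TRPT1, ATP6V1G2 and TASOR, each at Pearson r 0.999 on the log2 scale. TRPT1, a tRNA phosphotransferase, read 685 to 751 in MALC and 519 to 580 in suspension. ATP6V1G2, a subunit of the proton pump of acidic vesicles, read 425 to 533 and 205 to 276. TASOR is a subunit of a complex that silences chromatin. These points are only 6 arrays that share the split between MALC and suspension and the low sample 1, and 1094 of 13764 genes had r over 0.95. The gene next to FCMR, PIGR, which carries IgA and IgM across epithelia, did not pass the test (log2 difference -0.13, adjusted p 0.145), and its relative FCAMR stayed under the filter at 13.5 to 15.4.

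FCGR2B (CD32B), the only classical inhibitory receptor for IgG, fell. Probe set 210889_s_at read 78.1, 93.2 and 85.97 in MALC 1, 2 and 3, and 277, 227 and 214 in suspension 1, 2 and 3. The groups lay far apart relative to their spread, and here suspension 1 was the highest sample. The means were 85.8 ± 7.58 and 239 ± 33.7 (SD, n = 3 each), a log2 difference of -1.32 with a standard error of 0.11 and an interval of -1.57 to -1.07 (adjusted p 0.000231, limma). The probe set that names FCGR2C and FCGR2A together, 1565674_at, was under the filter, with 15.99 to 16.6 in MALC and 17.3 to 19.2 in suspension.

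FCGR2C is a near-identical copy of FCGR2B in much of its sequence, so signal may be shared between their probe sets and the assignment is uncertain. Of its 3 tested probe sets, 211395_x_at read 142, 171 and 130 in MALC and 265, 240 and 250.5 in suspension, a log2 difference of -0.72 (adjusted p 0.00143). Probe set 210992_x_at read 72.9, 72.0 and 67.1 against 107, 88.1 and 93.4 (-0.37, adjusted p 0.00686). The third, 211396_at, read 71.9 to 75.6 against 79.1 to 89.1 and missed the threshold (-0.17, adjusted p 0.0545), passing it without suspension 2 (0.0455). All 3 had groups that did not overlap. FCGR2A, the activating IgG receptor of myeloid cells, was under the filter at 21.3 to 23.2 and 23.9 to 26.0.

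**Figure D3:**
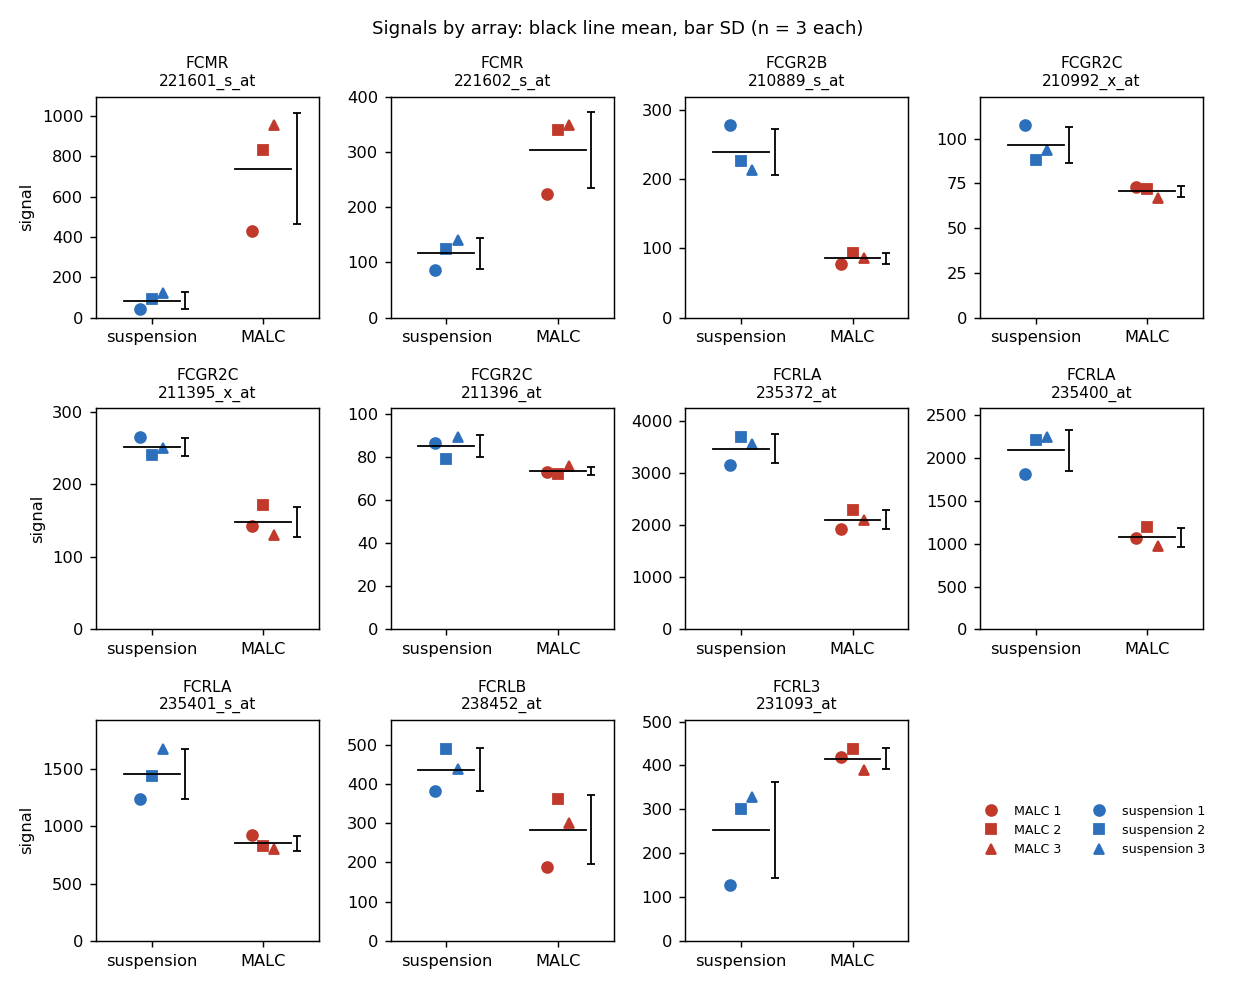
Signal (linear axis from 0) by array for FCMR, FCGR2B, its near-identical relative FCGR2C, FCRLA, FCRLB and FCRL3; points are single arrays, lines are means and bars SD of 3 samples. MALC points lie above suspension points for FCMR and FCRL3 and below them for the others, and for FCRL3 suspension 1 lies far below the other suspension samples.

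FCRLA and FCRLB lie beside FCGR2B on chromosome 1, in the order FCGR3B, FCGR2B, FCRLA, FCRLB, DUSP12. FCRLA, an intracellular protein of germinal centre B cells that binds immunoglobulins, fell on all 3 of its probe sets. Probe set 235372_at read 1921, 2299 and 2106 in MALC and 3162, 3695 and 3553 in suspension. The means were 2109 ± 189 and 3470 ± 276 (SD, n = 3 each), a log2 difference of -0.72 with an interval of -0.92 to -0.51 (adjusted p 0.000914, limma). Probe set 235400_at went from 2091 ± 243 in suspension to 1075 ± 111 in MALC (log2 -0.95, adjusted p 0.000758). Probe set 235401_s_at went from 1454 ± 218 to 852 ± 64.4 (log2 -0.75, adjusted p 0.00217). The 3 probe sets therefore gave falls of 1.64-fold to 1.93-fold, with no overlap between groups on any of them, and they were called under every alternative run.

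FCRLB, the other intracellular member, has 1 probe set, 238452_at. It read 188, 361 and 300 in MALC 1, 2 and 3, and 381, 490 and 439 in suspension 1, 2 and 3. The groups did not overlap, but MALC 2 came close to suspension 1, and sample 1 was the lowest of both groups. The means were 283 ± 87.6 and 437 ± 54.5 (SD, n = 3 each), a log2 difference of -0.64 with an interval of -1.13 to -0.14 (adjusted p 0.046, limma). The call was lost without MALC 3 (adjusted p 0.0838), suspension 1 (0.0546), suspension 2 (0.13) or suspension 3 (0.107), and also with no filter (0.0549), while the direction held in all of these. Without MALC 1 the log2 difference was -0.38.

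DUSP12, a dual-specificity phosphatase that is no Fc receptor and follows FCRLB in the gene order, was also lower in MALC. It read 1029, 936 and 842 in MALC and 1793, 1728 and 1677 in suspension (log2 difference -0.88, adjusted p 0.00042). FCGR3B, on the other side of FCGR2B, is a receptor of neutrophils, and its probe set was under the filter.

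The promoters of the 4 genes that were called are shown as the 250 bases before a RefSeq start. FCGR2B, FCRLA and FCRLB were lower in MALC and FCMR was higher, and whether the neighbours change together was not tested. FCMR and FCGR2B have 2 starts each in the table, FCRLB has 3 and FCRLA has 1. The first start is shown, except for FCGR2B, where the second is shown because the window of the first held no match. The sequences are from RefSeq on GRCh38.p14, 5′ to 3′ on the strand of the gene. Capitals mark matches on either strand to ATGCAAAT, the octamer of B cell promoters, to GAGGAA, a core bound by the myeloid and B cell factor PU.1, and to GGAAGT, a core of ETS factors. The windows are chr1:206923197-206923446 (minus strand) for FCMR, chr1:161662893-161663142 (plus) for FCGR2B, chr1:161706979-161707228 (plus) for FCRLA and chr1:161721294-161721543 (plus) for FCRLB.
FCMR: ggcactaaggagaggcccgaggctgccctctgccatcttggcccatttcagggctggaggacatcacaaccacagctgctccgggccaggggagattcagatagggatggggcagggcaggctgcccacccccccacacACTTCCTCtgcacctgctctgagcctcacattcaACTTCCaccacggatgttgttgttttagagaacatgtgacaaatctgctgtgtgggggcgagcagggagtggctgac
FCGR2B: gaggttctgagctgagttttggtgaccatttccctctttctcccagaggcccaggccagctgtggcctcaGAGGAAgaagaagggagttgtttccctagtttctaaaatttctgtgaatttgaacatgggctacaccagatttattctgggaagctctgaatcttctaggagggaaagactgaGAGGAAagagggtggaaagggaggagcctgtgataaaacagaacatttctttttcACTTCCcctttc
FCRLA: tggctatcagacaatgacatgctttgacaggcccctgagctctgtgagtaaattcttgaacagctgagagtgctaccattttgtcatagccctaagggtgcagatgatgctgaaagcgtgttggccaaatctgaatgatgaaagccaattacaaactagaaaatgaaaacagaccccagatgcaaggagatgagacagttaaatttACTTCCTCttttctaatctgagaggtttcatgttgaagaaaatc
FCRLB: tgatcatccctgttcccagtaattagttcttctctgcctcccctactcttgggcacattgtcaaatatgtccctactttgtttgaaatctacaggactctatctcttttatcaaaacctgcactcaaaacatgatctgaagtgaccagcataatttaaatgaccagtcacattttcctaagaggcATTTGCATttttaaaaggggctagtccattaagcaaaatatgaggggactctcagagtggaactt

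FCMR and FCRLA, which moved in opposite directions, both hold GAGGAAGT, in which GAGGAA and GGAAGT overlap and which is written ACTTCCTC on the strand shown. The match lies 111 to 104 bases before the first start of FCMR, with none at its second start, and 44 to 37 bases before that of FCRLA. FCRL1, whose probe sets were under the filter, holds it too, 16 to 9 bases before its start. These are 3 of the 15 windows of the 10 genes, and 2.17% of all 35116 windows of this length hold a match. ATGCAAAT was found in 1 window, that of FCRLB, 65 to 58 bases before the start on the other strand (1.63% of all windows). GAGGAA was in 7 of 15 windows (23.6% of all), GGAAGT in 8 (19.5%), and GTGGGAA, the core bound by RBPJ, in 1, that of FCER2 (5.43%). ACGTG (18.5%) and TGTTTAC (2.98%) were not found in these 15 windows. The motifs were chosen with the values known, and a match describes letters and not binding.

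FCRL3, an inhibitory and activating receptor of B and regulatory T cells, read 419, 438 and 390 in MALC 1, 2 and 3 on probe set 231093_at. In suspension 1, 2 and 3 it read 127, 302 and 328. The groups did not overlap, but suspension 1 was far below the other suspension samples. The means were 416 ± 24.4 and 252 ± 109 (SD, n = 3 each), a log2 difference of 0.79 with an interval of 0.08 to 1.49, and the adjusted p of 0.071 (limma) missed the threshold. The value depended on suspension 1: without it the difference was 0.38 and the adjusted p 0.0123, and with it as the only suspension sample 1.60 and 0.00795. The second probe set, 1553196_a_at, was under the filter at 35.1 to 40.5 in MALC and 28.1 to 34.6 in suspension.

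FCRL2 and FCRL5, inhibitory receptors of memory B cells and plasma cells, did not pass the test. FCRL2 probe set 224193_s_at read 112, 121 and 126 in MALC and 114, 126 and 118 in suspension, with a 95% interval of the log2 difference of -0.16 to 0.16 (adjusted p 0.963, limma). Its probe set 224194_at read 95.2, 87.5 and 94.4 against 96.0, 110 and 101, an interval of -0.28 to 0.03 (adjusted p 0.167). The groups did not overlap there, and with array weights, which count samples 1 less, it passed (-0.19, adjusted p 0.0153). FCRL5 probe set 224406_s_at read 128, 121 and 106 against 122, 126 and 119, an interval of -0.22 to 0.13 (adjusted p 0.657). Its groups overlapped. The other 3 FCRL2 and 4 FCRL5 probe sets were under the filter.

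FCRL1, an activating co-receptor of B cells, and FCRL4, a marker of a tissue memory B cell subset, were dim on all their probe sets. The FCRL1 probe sets read 17.5 to 19.3 and 12.4 to 15.4 in MALC and 16.8 to 19.1 and 12.6 to 13.8 in suspension, with log2 differences of 0.01 and 0.05. The 3 FCRL4 probe sets had signals of 12.1 to 23.1 and log2 differences of 0.01, -0.10 and -0.16, and suspension 3 was the highest sample in the latter pair. FCRL1 to FCRL5 form one cluster on chromosome 1. Of its 3 genes tested, 0 were called in the fit reported (limma), where 41.4% of all genes were called. So small a count is no result about the cluster. FCRL3 had an unadjusted p under 0.05 (limma).

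FCER2 (CD23), the low-affinity receptor for IgE, lay at the filter. Probe set 206760_s_at read 60.2, 61.7 and 63.4 in MALC and 66.8, 62.2 and 61.1 in suspension. The groups overlapped, with means of 61.8 ± 1.59 and 63.4 ± 2.99 (SD, n = 3 each) and an interval of the log2 difference of -0.16 to 0.10 (adjusted p 0.696, limma). Just outside the filter, 206759_at read 51.3 to 55.7 in MALC and 45.2 to 61.0 in suspension, a log2 difference of 0.01.

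A further list held ligands, sheddases and inducers of FCER2, FCMR and their relatives, together with B cell transcription factors such as BCL6 and PRDM1. Of its 18 tested genes, 6 were higher in MALC, 1 was lower and 11 were not called, a share called near the 41.4% of all genes. Over all genes the shares by direction were 18.6% higher and 22.7% lower, and the different split in this small list was not tested. The median log2 difference was 0.17, against -0.06 over all genes tested. NOTCH2, whose signal induces FCER2 in B cells, was higher on 2 of its 3 tested probe sets. Probe set 202443_x_at read 237, 404 and 465 in MALC and 66.9, 75.2 and 70.6 in suspension (log2 2.09, 4.27-fold, adjusted p 0.000485, limma). Probe set 212377_s_at gave 2.07 (adjusted p 0.000405), 210756_s_at gave 0.22 and was not called (adjusted p 0.105), and 202445_s_at was under the filter. RBPJ, the DNA-binding partner of Notch, went from 3405 ± 50.7 to 6332 ± 354 (log2 0.89, adjusted p 0.000106), on 3 of 3 probe sets. ADAM10, the protease that sheds FCER2 from the surface, went from 2512 ± 117 to 3604 ± 341 (log2 0.51, adjusted p 0.00226). IL4R, the receptor through which IL-4 induces FCER2, fell: it read 451, 383 and 378 in MALC and 557, 786 and 740 in suspension (log2 -0.75, adjusted p 0.00432), a call lost with suspension 1 as the only suspension sample (adjusted p 0.0795). IGHM, the heavy chain of the IgM that FCMR binds, was slightly higher (log2 0.24, adjusted p 0.011), a call lost without MALC 2 (0.0513).

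**Figure D4:**
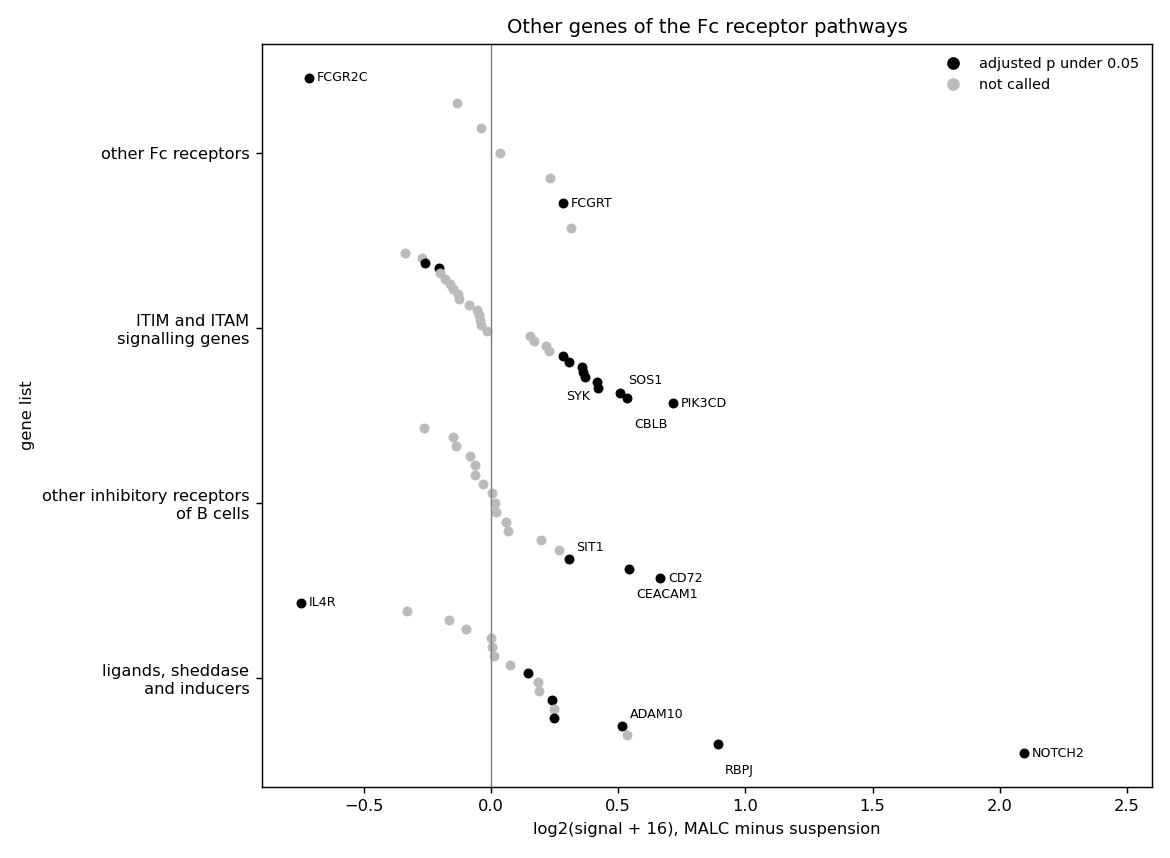
Difference MALC minus suspension in log2(signal + 16) for the tested genes of 4 lists related to Fc receptors, 1 point per gene by its brightest probe set; black points had an adjusted p under 0.05. NOTCH2 lies farthest to the right at 2.09, and IL4R and FCGR2C lie farthest to the left at -0.75 and -0.72.

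Of 15 other Fc receptors, 12 had a probe set naming them alone and 7 were tested. FCGR2C was lower, FCGRT was higher and 5 were not called, where 41.4% of all genes were called. The median log2 difference was 0.04, against -0.06 over all genes. FCGRT, the neonatal receptor that recycles IgG, went from 182 ± 12.1 to 226 ± 25.6 (log2 0.28, adjusted p 0.0436, limma), a call lost when any sample other than MALC 1 was left out. FCER1G, the ITAM chain shared by several Fc receptors, had a log2 difference of 0.31 and was not called (adjusted p 0.234). Without MALC 1 it was called (0.57, adjusted p 0.000673).

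Of 30 tested genes of ITIM and ITAM signalling, 10 were higher, 2 were lower and 18 were not called, a share called near the 41.4% of all genes (18.6% higher, 22.7% lower). The median was -0.03, against -0.06 over all genes. PIK3CD, the lymphoid PI3-kinase subunit, went from 911 ± 38.5 to 1512 ± 159 (log2 0.72, adjusted p 0.00102), but its dimmer probe set 211230_s_at gave 0.05 (adjusted p 0.591). CBLB, a ubiquitin ligase that restrains receptor signalling, went from 1410 ± 42.4 to 2052 ± 153 (0.53, adjusted p 0.00143), and its probe set 227900_at gave 0.24 and was not called (adjusted p 0.0594). SYK, the kinase that binds phosphorylated ITAMs, went from 3582 ± 90.2 to 4828 ± 606 (0.42, adjusted p 0.00848), and all 4 of its probe sets were higher. SOS1, a Ras exchange factor, rose by 0.51 (adjusted p 0.0128), but its probe sets disagreed in direction and the call was lost without MALC 3 (0.0531) or suspension 2 (0.0503). INPP5D, which encodes the phosphatase SHIP-1 that FCGR2B recruits, was also higher (0.37, adjusted p 0.00806). PTPN6, which encodes SHP-1, was not called (-0.02, adjusted p 0.933), nor was LYN, the kinase that phosphorylates ITIMs (0.15, adjusted p 0.245), although LYN passed without MALC 1 (0.26, adjusted p 0.0116). GRB2 (-0.26, adjusted p 0.0271) and PTPN11 (-0.21, adjusted p 0.0478), an adaptor and the phosphatase SHP-2, were lower. The GRB2 call was lost without MALC 2 (0.0814) or MALC 3 (0.0945), and that of PTPN11 without any sample other than MALC 1 (adjusted p 0.0805 to 0.158). Without MALC 3 the count of genes higher was 6 in place of 10.

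A list drawn up as inhibitory receptors of B cells outside the Fc families also held the adaptor SIT1 and genes such as KLRG1 and SLAMF6. Of its 17 tested genes, 3 were higher, 0 were lower (limma, also 0 at an unadjusted p under 0.05) and 14 were not called. Over all genes 41.4% were called: 18.6% were higher, near the share here, and 22.7% were lower. So small a count is no result about these genes. Those lower numbered 1 after quantile normalization and with array weights, and 2 without both samples numbered 1. The median log2 difference was 0.02, against -0.06 over all genes. CD72, an ITIM receptor for semaphorin CD100, went from 1334 ± 272 to 2133 ± 474 (log2 0.67, adjusted p 0.0324, limma). CEACAM1, an ITIM adhesion receptor, went from 91.6 ± 13.3 to 141 ± 29.0 (0.54, adjusted p 0.021), with log2 differences of 0.02 and 0.01 on its other tested probe sets. SIT1, an adaptor that binds SHP-2, went from 1192 ± 57.0 to 1479 ± 104 (0.31, adjusted p 0.0169). Each of these 3 calls was lost when MALC 3 was left out, leaving 0 genes higher.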

How the data were processed

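RNA of 3 MALC and 3 suspension samples of RL cells was hybridised to Affymetrix U133 Plus arrays after Trizol extraction and one-cycle biotin labelling of 200 ng, per the labels' protocols. The deposited values are intensities on a linear scale, given by the authors for each probe set of each array. The submitters' processing notes name MAS5 alone. Its role, its version and the normalization are not given in the sources used here. If arrays were scaled to each other, a shift of all transcripts would go unseen. Detection calls were not used here. Precision is limited by the small number of arrays.

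Groups and sample numbers came from the titles. Leaving out 62 controls, 54613 probe sets remained, of which 41091 named 1 symbol, 1801 several and 11721 none. A RefSeq table of GRCh38.p14, matched by Entrez identifier, gave current symbols for 41037 of the first. Intensities were set to log2(signal + 16), those whose mean reached the 40th percentile were kept, and limma 3.58.1 in R 4.3.3 (lmFit, eBayes with trend, two-sided, group only) was fitted over all 32768, with Benjamini-Hochberg adjustment and a threshold of 0.05. A gene in a count was its brightest probe set in this fit. The script was tested on simulated data. Promoter windows came from a RefSeq table with 35116 windows.

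Named were all probe sets of the 10 genes, up to 4 genes of each other list (the largest changes past the threshold with no overlap between groups), and the 3 genes most like the member with the largest change. Neighbouring genes and further list genes were picked for naming once values were known. The members and lists were chosen with earlier results of these data known.

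The groups share sample numbers, whose meaning the labels leave unstated. Samples of the same number deviated together from their group means (correlations of 0.245, 0.168 and 0.14 for numbers 1, 2 and 3), but MALC 2 with suspension 3 and MALC 3 with suspension 2 gave 0.14 and 0.175, so numbers 2 and 3 were not told apart. The number entered as a block in an alternative. Other alternatives were no filter, other scalings, array weights, no trend, other probe set rules and leaving samples out.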

Additional observations from a re-analysis of the deposited data

How the results depend on the processing

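Over 20 alternatives, 2 of them (leaving out both samples numbered 1, or suspension 2 and 3) chosen after the data were seen, the probe sets of FCMR, FCGR2B and FCRLA kept their direction and call wherever they were tested. With the sample number as a replicate block, no member's call changed (FCMR adjusted p 0.000127, FCRLB 0.00707, FCRL3 0.0501). FCRLB was called in 12 of 18 alternatives and lost its call most clearly without suspension 2 and 3 (adjusted p 0.357). FCRL3 passed with array weights (log2 0.50, adjusted p 0.0242), without suspension 1 (0.0123), without suspension 3 (1.02, 0.0431), without both samples numbered 1 (0.000859) and without suspension 2 and 3 (0.00795). Differences near 0 changed sign with no call: leaving out 1 sample, FCER2 ranged from -0.050 to 0.0015 and FCRL5 from -0.097 to 0.022, without both samples numbered 1 FCER2 gave 0.016, and FCRL2 224193_s_at gave -0.025 after quantile normalization and -0.029 to 0.046 leaving out 1 sample. Without probe sets ending in _s_at or _x_at, which drops every FCMR and FCGR2B probe set tested, 0 member probe sets were higher and 3 lower, and 0 member genes were higher. Member genes higher numbered 2 with array weights, without both samples numbered 1 and without suspension 2 and 3, and 1 to 2 leaving out 1 sample. Other Fc receptors higher numbered 0 with no filter, after quantile normalization, without _s_at and _x_at probe sets and without suspension 2 and 3, 3 with array weights and without both samples numbered 1, and 0 to 3 leaving out 1 sample; those lower numbered 2 with array weights and 0 without _s_at and _x_at. ITIM and ITAM genes higher numbered 5 without suspension 2 and 3 and 6 to 12 leaving out 1 sample. Those lower numbered 1 with no filter, with median centring, without trend, with a gene's probe sets averaged and without suspension 2 and 3, 0 without _s_at and _x_at, 9 with array weights, 7 without both samples numbered 1 and 0 to 5 leaving out 1 sample. Inhibitory receptors higher numbered 1 without suspension 2 and 3 and 0 to 4 leaving out 1 sample; those lower numbered 1 after quantile normalization and with array weights, 2 without both samples numbered 1 and 0 to 1 leaving out 1 sample. Ligands, sheddases and inducers higher numbered 10 with array weights, 12 without both samples numbered 1 and 3 to 7 leaving out 1 sample; those lower numbered 2 after quantile normalization, 4 with array weights and without both samples numbered 1, 0 without suspension 2 and 3 and 1 to 3 leaving out 1 sample. Other causes of these moves were not tested. Signals near the filter, as for FCER2, limit what could be detected.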

Other observations

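CR2 (CD21), the complement receptor of B cells, named here after its values were seen, differed more between samples of one group than between groups. It read 213, 944 and 900 in MALC 1, 2 and 3, and 122, 672 and 684 in suspension 1, 2 and 3, so sample 1 was low in both groups and the difference between groups was not called (log2 0.53, adjusted p 0.592, limma). TNFRSF17 (BCMA), a receptor of late B cells and plasma cells, was highest in sample 1 of both groups, with 1100.5 in MALC 1 and 1117 in suspension 1 against 443 to 824 in the other samples, and was not called (adjusted p 0.279).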
